A study of Homo sapiens with 18 samples.

Results

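The genes described here encode 10 receptors of the TGF-β superfamily, chosen by symbol from the 60642 gene symbols of the count table. The list holds the type II receptors TGFBR2, BMPR2, ACVR2A and ACVR2B, the type I receptors TGFBR1, ACVR1, ACVR1B, BMPR1A and BMPR1B, and the co-receptor TGFBR3. RNA sequencing was done on 18 libraries of the human colorectal cancer cell lines HT-29 iZEB1 and SW620, in 6 groups of 3 libraries. HT-29 iZEB1 is a form of HT-29 in which doxycycline (DOX) induces ZEB1, a repressor of E-cadherin and other epithelial genes, and RepSox is a compound that blocks the kinase activity of ALK5, the protein of TGFBR1. The 4 HT-29 iZEB1 groups had DOX with RepSox, DOX with the vehicle DMSO, RepSox without DOX, and DMSO without DOX. The SW620 cells, for which the labels name no inducible gene, had RepSox or DMSO. The RepSox dose was 10 µM over 24 h. The DOX dose was 1 µg per ml, over 24 h in the treatment protocol and over 48 h in the design text. The labels do not say whether iZEB1 cells are 1 clone or a pool, or whether replicates are separate cultures. Each p-value reflects the spread among libraries within groups, estimated over all groups fitted together and with information shared across genes. That spread may be technical. DOX on HT-29 cells without the inducible gene was not analysed here, so the inducer and ZEB1 cannot be told apart.

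A ligand of this superfamily brings together a pair of type II and a pair of type I receptors, and the type II receptors phosphorylate the type I receptors. The type I kinases then phosphorylate SMAD proteins, SMAD2 and SMAD3 downstream of TGF-β and activin receptors and SMAD1, SMAD5 and SMAD9 downstream of BMP receptors. In the gut epithelium TGF-β signalling restrains growth and BMP signalling accompanies differentiation, and colorectal cancers often lose receptors or SMADs of these pathways. RepSox acts on the kinase, so the transcript of TGFBR1 is not itself its target.

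The libraries held 36.5 to 39.8 M counts. Levels are given as CPM, counts per M counts of a library whose size was corrected for composition by the TMM method over all 18 libraries. ZEB1 stood at 16.01 ± 1.39 CPM with DOX and RepSox, 378 ± 7.05 with DOX and DMSO, 5.38 ± 0.347 with RepSox and 8.55 ± 1.59 with DMSO in HT-29 iZEB1, and at 23.7 ± 0.827 with RepSox and 21.5 ± 2.54 with DMSO in SW620 (SD, n = 3 each). DOX therefore went with a high ZEB1 level in DMSO, and with a level 23.8-fold lower where RepSox was present (log2 -4.57, SE 0.098, edgeR adjusted p = 4.02e-16). Of 9 epithelial markers, 7 stood at 1 CPM or more in each group, while CDX1 and CDX2 were below 1 CPM in HT-29 iZEB1 and CDX1 (at 0) and KRT20 were below it in SW620. Of 13 markers of fibroblasts, leukocytes and endothelial cells, 1 reached 1 CPM in each HT-29 iZEB1 group and 3 did in each SW620 group, with medians of at most 0.128 CPM and COL1A2 at 0 in all groups. Their summed level ran from 5.95 to 10.2 CPM in HT-29 iZEB1 libraries, and from 10.7 to 12.4 CPM with RepSox and 14.7 to 16.6 CPM with DMSO in SW620.

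Levels of different genes were compared per length, as CPM per kilobase (kb) of merged exon. TGFBR2, the type II receptor for TGF-β, had the highest level in all 6 groups. It stood at 22.5 ± 1.03 CPM per kb with DOX and RepSox, 40.2 ± 1.20 with DOX and DMSO, 21.8 ± 0.211 with RepSox and 23.2 ± 0.759 with DMSO in HT-29 iZEB1 (SD, n = 3 each). In SW620 it stood at 23.7 ± 0.811 CPM per kb with RepSox and 20.9 ± 0.942 with DMSO (SD, n = 3 each). It made up 35.7% to 49.2% of the summed level of the 10 receptors.

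Below TGFBR2 the order differed between the lines. In HT-29 iZEB1 with DMSO, ACVR1B, a type I receptor for activin (10.4 CPM per kb), and BMPR2, the BMP type II receptor (9.38 CPM per kb), came next with libraries that overlapped. ACVR1, a type I receptor for BMP ligands also called ALK2 (7.49 CPM per kb), and BMPR1A, a BMP type I receptor also called ALK3 (3.78 CPM per kb), followed, each apart from its neighbours. TGFBR1 (3.17 CPM per kb) and TGFBR3 (2.998 CPM per kb) overlapped, and the activin type II receptors ACVR2A (1.45 CPM per kb) and ACVR2B (0.709 CPM per kb) were the lowest genes past the detection limit. With DOX and DMSO, BMPR2 (15.6 CPM per kb) lay above ACVR1B (11.1 CPM per kb) and TGFBR1 (4.91 CPM per kb) above BMPR1A (4.17 CPM per kb), with no overlap between any neighbours. In SW620 with DMSO, ACVR1B held rank 2 (9.34 CPM per kb), then BMPR1A (4.63), TGFBR1 (3.04), BMPR2 (2.48), TGFBR3 (1.82), ACVR1 (1.65), ACVR2B (1.06) and ACVR2A (0.604 CPM per kb), with overlap between TGFBR3 and ACVR1 alone. In DMSO without DOX, BMPR2 and ACVR1 thus held ranks 3 and 4 in HT-29 iZEB1, against ranks 5 and 7 in SW620, where ACVR2B lay above ACVR2A. With the length of the principal transcript in place of merged exons, an alternative chosen after seeing the data, ACVR1 (9.80 CPM per kb) ranked above BMPR2 (9.73) and TGFBR3 (4.04) above BMPR1A (3.83) in HT-29 iZEB1 with DMSO.

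**Figure D1:**
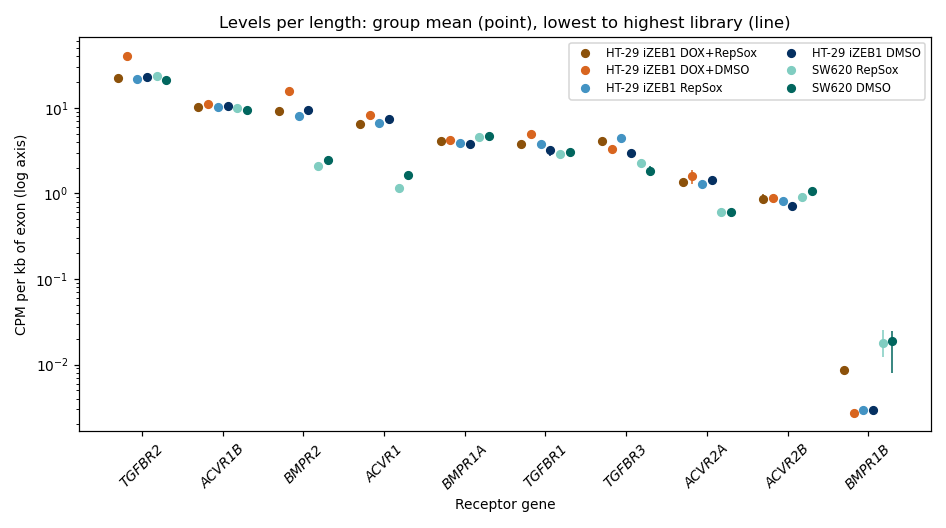
Level per length of the 10 receptor genes (log axis, CPM per kb of merged exon) in the 6 groups; points are means of 3 libraries and lines run from the lowest to the highest library. TGFBR2 lies above every other receptor in all 6 groups (means of 20.9 to 40.2 CPM per kb), and the means of BMPR1B lie below 0.02 CPM per kb. Lines that would reach 0 are not drawn on the log axis.

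BMPR1B (chromosome 4, 94757968 to 95158448, plus strand, protein-coding), a BMP type I receptor also called ALK6, was at or near the detection limit in all groups. It had 6 counts summed over 3 libraries with DOX and RepSox, 2 with DOX and DMSO, 2 with RepSox and 2 with DMSO in HT-29 iZEB1. In SW620 it had 13 counts with RepSox and 14 with DMSO. At this depth a count of 0 in a library allows a level of up to 0.0734 to 0.0863 CPM, by counting error alone. This limit takes each count as independent, which was not tested, and would be higher if mates of a pair were counted separately. The gene did not pass the filter on low counts in any fit, so 9 of the 10 receptors were tested.

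The summed level of the 4 type II receptors stood at 34.0 ± 1.67 CPM per kb with DOX and RepSox, 58.3 ± 0.425 with DOX and DMSO, 32.1 ± 0.464 with RepSox and 34.7 ± 0.886 with DMSO (SD, n = 3 each). The 5 type I receptors together stood at 24.5 ± 0.450, 28.5 ± 0.477, 24.6 ± 0.864 and 24.8 ± 1.45 CPM per kb in the same groups. The ratio of type II to type I transcripts was 1.38 ± 0.054 with DOX and RepSox, 2.04 ± 0.048 with DOX and DMSO, 1.31 ± 0.034 with RepSox and 1.40 ± 0.055 with DMSO. With DOX and DMSO the ratios of single libraries ran from 1.9965 to 2.09, above those of the other 9 HT-29 iZEB1 libraries, whose highest ratio was 1.45. In SW620 this ratio was 1.47 ± 0.041 with RepSox and 1.3396 ± 0.043 with DMSO (SD, n = 3 each). The ratio of BMPR2 to BMPR1A, a pair of BMP receptors, was 2.27 ± 0.122, 3.73 ± 0.218, 2.08 ± 0.078 and 2.48 ± 0.150 in the HT-29 iZEB1 groups in that order, against 0.458 ± 0.020 with RepSox and 0.536 ± 0.028 with DMSO in SW620. BMPR2 thus lay above BMPR1A per length in the 12 HT-29 iZEB1 libraries and below it in the 6 SW620 libraries. These sums and ratios are descriptions with no test.

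**Figure D2:**
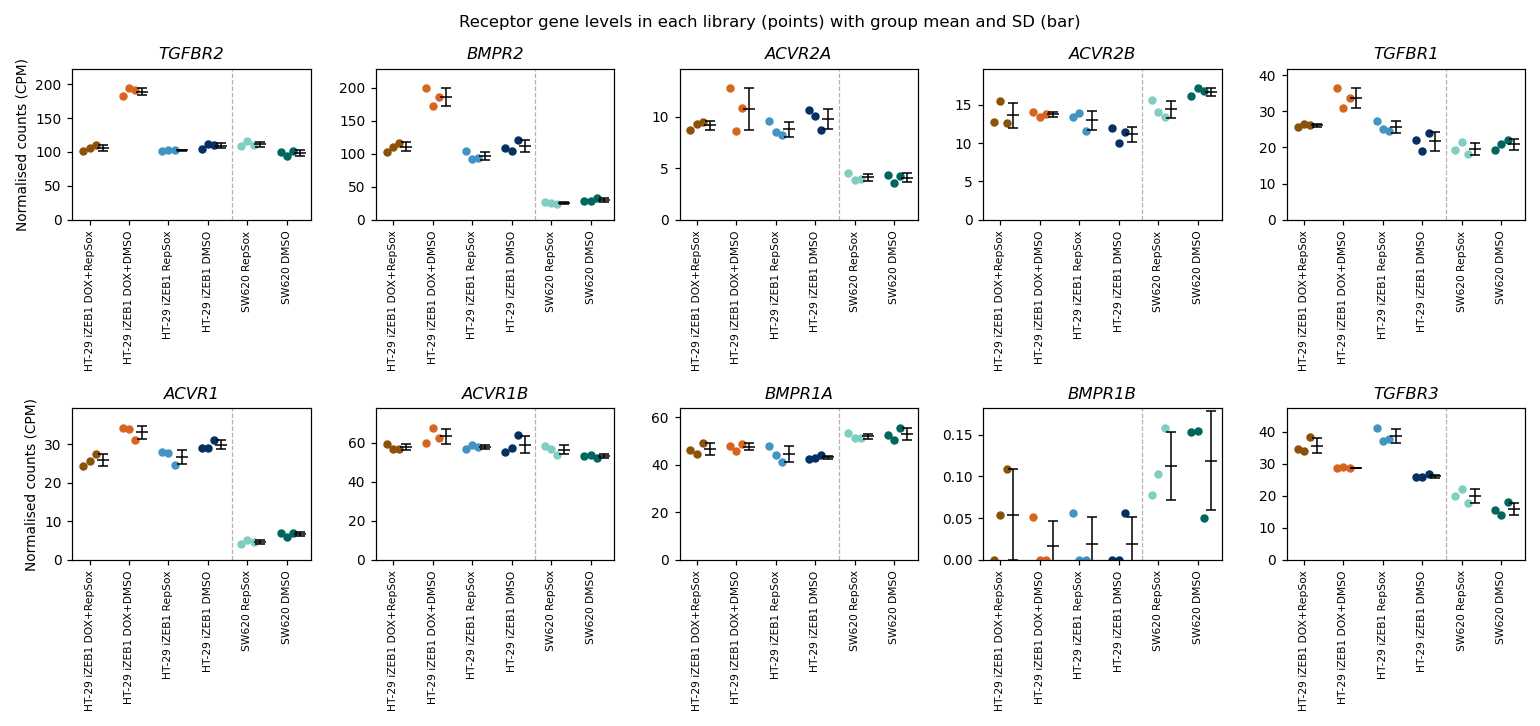
Level of each receptor gene (normalised counts, CPM, linear axis from 0) in the 18 libraries; points are libraries, and the bar beside them gives the mean and SD of 3. In the group with DOX and DMSO, the libraries of TGFBR2, BMPR2 and TGFBR1 lie above those of every other group. ACVR1, ACVR1B and ACVR2A also have their highest mean there, with libraries that overlap another group. BMPR2, ACVR1, ACVR2A and TGFBR3 are lower in SW620 than in HT-29 iZEB1 at the same treatment.

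In the absence of RepSox, DOX in HT-29 iZEB1 went with higher transcript levels of the TGF-β receptor pair TGFBR2 and TGFBR1, of BMPR2 and of ACVR2B, and none of the 9 tested receptors was lower. The 5 others, ACVR2A, ACVR1, ACVR1B, BMPR1A and TGFBR3, were not called. Calls are from edgeR's quasi-likelihood test at a Benjamini-Hochberg adjusted p below 0.05 over all 16978 genes tested. In this comparison 40.4% of all genes were called, 19.2% higher and 21.1% lower, against 4 higher and 0 lower of 9 receptors. Taken in either direction, the receptors called are thus near the share of all genes. Of the 9 receptors, 6 had no overlap between the libraries with and without DOX, as had 48.5% of all genes. The median log2 change of the 9 was 0.15, and that of all genes 0.002. In bulk libraries, a change in the number of cells that carry a transcript and a change in transcript per cell cannot be told apart.

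TGFBR2 (chromosome 3, 30606502 to 30694142, plus strand, protein-coding, GENCODE 29 on GRCh38) had 183, 194 and 191 CPM in the libraries with DOX and DMSO, against 105, 112 and 109.9 CPM with DMSO alone. The groups lay far apart, and TGFBR2 was 1.74-fold higher with DOX (log2 0.80, SE 0.057, edgeR adjusted p = 1.85e-09). BMPR2 (chromosome 2, 202376936 to 202567751, plus strand, protein-coding), whose long cytoplasmic tail sets it apart from the other type II receptors, had 199, 172 and 186 CPM with DOX and DMSO, against 109, 105 and 121 CPM with DMSO alone. All 3 libraries with DOX were above the highest without it, a 1.67-fold rise (log2 0.74, SE 0.075, edgeR adjusted p = 2.64e-07). TGFBR1 (chromosome 9, 99104038 to 99154192, plus strand, protein-coding), the type I partner of TGFBR2, had 36.3, 31.0 and 33.6 CPM with DOX and DMSO, against 22.1, 18.9 and 24.1 CPM with DMSO alone. Its groups did not overlap and it was 1.56-fold higher (log2 0.64, SE 0.089, edgeR adjusted p = 1.27e-05). ACVR2B (chromosome 3, 38453851 to 38493142, plus strand, protein-coding), a type II receptor for activins and myostatin, had 14.1, 13.4 and 13.8 CPM with DOX and DMSO, against 12.01, 10.1 and 11.4 CPM with DMSO alone. This smaller difference (log2 0.31, SE 0.10, edgeR adjusted p = 0.0222) lost its call without replicate 1 (adjusted p = 0.0609) or 3 (0.0537) of the DOX and DMSO group, or replicate 2 of the DMSO group (0.120).

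The receptors not called had positive log2 changes from 0.11 for ACVR1B (95% interval -0.03 to 0.25) to 0.15 for ACVR1 (-0.01 to 0.32). BMPR1A, at 47.9, 46.0 and 49.0 CPM with DOX and DMSO and 42.5, 42.8 and 44.0 CPM with DMSO alone, had groups that did not overlap but an edgeR adjusted p of 0.0983. ACVR2A shares 430 exonic bases with ORC4 and 110 with AC009480.1 on the other strand, and since no strand setting is given its counts are uncertain. Scaled by library totals alone, 8 of the 9 receptors were called higher and the share of higher calls among all called genes was 59.5%, against 47.6% with TMM. The 9 epithelial markers moved in the same libraries, 0 higher and 7 lower, with a summed level of 4428 to 4858 CPM with DOX and DMSO and 8743 to 9902 CPM with DMSO alone. Their part in the receptor changes was not tested.

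**Figure D3:**
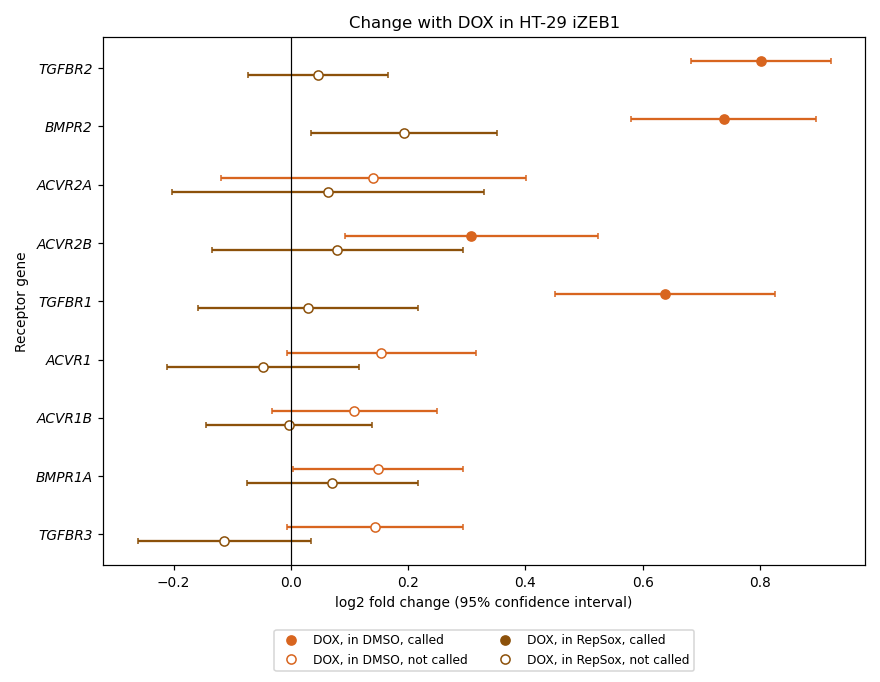
Change with DOX of the 9 tested receptor genes in HT-29 iZEB1 (log2 fold change with 95% confidence interval, edgeR), in DMSO and in RepSox; filled points were called at an adjusted p below 0.05. TGFBR2, BMPR2 and TGFBR1 have log2 changes of 0.64 to 0.80 in DMSO and of 0.03 to 0.19 in RepSox, where no point is filled.

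The stretches before the transcription starts of TGFBR1, TGFBR2 and BMPR2 are shown because these 3 genes had the largest changes and changed together. Each is 250 bases, 5′ to 3′ on the plus strand and ending just before a start, from RefSeq on GRCh38.p14, at chr9:99104833-99105082, chr3:30606351-30606600 and chr2:202376077-202376326. For each gene the RefSeq start nearest to that of the GENCODE 29 principal transcript was used, which is 6 bases away for TGFBR1, 99 for TGFBR2 and 609 for BMPR2. Capitals mark the motifs found.
TGFBR1: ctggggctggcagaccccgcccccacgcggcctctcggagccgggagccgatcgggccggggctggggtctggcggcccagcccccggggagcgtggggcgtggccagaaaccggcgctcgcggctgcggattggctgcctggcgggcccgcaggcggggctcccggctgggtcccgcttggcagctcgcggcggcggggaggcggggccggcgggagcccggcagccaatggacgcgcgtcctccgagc
TGFBR2: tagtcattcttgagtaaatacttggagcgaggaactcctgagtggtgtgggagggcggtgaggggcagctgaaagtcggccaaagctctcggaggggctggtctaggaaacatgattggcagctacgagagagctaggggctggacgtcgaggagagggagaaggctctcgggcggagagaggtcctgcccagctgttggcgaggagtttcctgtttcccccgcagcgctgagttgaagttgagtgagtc
BMPR2: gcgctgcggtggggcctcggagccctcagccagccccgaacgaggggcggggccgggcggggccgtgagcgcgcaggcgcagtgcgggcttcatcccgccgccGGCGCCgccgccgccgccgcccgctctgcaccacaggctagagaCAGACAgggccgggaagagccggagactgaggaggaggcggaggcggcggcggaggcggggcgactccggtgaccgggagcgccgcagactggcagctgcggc
Searched on both strands were CACCTG, the E-box core that ZEB1 binds, and the SMAD motifs GTCTAGAC, GGCGCC and CAGACA, and the matches found did not overlap each other. The BMPR2 window holds GGCGCC and CAGACA once each, starting 147 and 103 bases before the start. Of the windows chosen in the same way for the other receptors and not shown, only that of ACVR1B holds any of these motifs, GGCGCC 4 times. Whether a motif has a part in the receptor changes was not tested. The windows of TGFBR1 and TGFBR2 hold none of the 4 motifs, which says only that these letters are not in these windows. Of 35116 promoter windows of this length, 17.5% hold CACCTG, 0.182% GTCTAGAC, 16.4% GGCGCC and 13.6% CAGACA. TGFBR1 has 8 RefSeq windows, of which 3 hold CACCTG, 0 GTCTAGAC, 1 GGCGCC and 2 CAGACA.

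Where DOX was present, RepSox went with lower TGFBR2, BMPR2, TGFBR1 and ACVR1 and with higher TGFBR3. Of all genes 52.2% were called, 26.8% higher and 25.5% lower, and of the 9 receptors 4 were lower and 1 was higher, a total near that share. Libraries did not overlap for 6 of the 9, against 55.4% of all genes. TGFBR2 had 101, 106 and 111 CPM with DOX and RepSox, against the 183 to 194 CPM with DOX and DMSO given above. It was 1.80-fold lower (log2 -0.85, SE 0.057, edgeR adjusted p = 6.08e-10). BMPR2 had 103, 111 and 117 CPM with DOX and RepSox and 172 to 199 CPM with DOX and DMSO, a 1.69-fold fall (log2 -0.76, SE 0.075, edgeR adjusted p = 1.07e-07). In both genes the 3 RepSox libraries lay below all 3 DMSO libraries. TGFBR1 had 25.7, 26.4 and 26.1 CPM with DOX and RepSox, below the 31.0 to 36.3 CPM with DOX and DMSO (log2 -0.38, SE 0.088, edgeR adjusted p = 0.00147).

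ACVR1 (chromosome 2, 157736444 to 157875862, minus strand, protein-coding) had 24.5, 25.7 and 27.6 CPM with DOX and RepSox, against 34.2, 34.1 and 31.1 CPM with DOX and DMSO. The groups did not overlap and it was 1.29-fold lower (log2 -0.36, SE 0.077, edgeR adjusted p = 0.000600). TGFBR3 (chromosome 1, 91680343 to 91906335, minus strand, protein-coding) encodes betaglycan, a co-receptor without kinase activity that presents TGF-β to TGFBR2. It had 34.5, 34.1 and 38.5 CPM with DOX and RepSox, against 28.6, 28.8 and 28.7 CPM with DOX and DMSO. It was thus the one receptor called higher, 1.23-fold (log2 0.30, SE 0.071, edgeR adjusted p = 0.00136). The other 4 had log2 changes from -0.24 for ACVR2A (95% interval -0.50 to 0.02) to -0.02 for ACVR2B (-0.23 to 0.19). ACVR1B was called lower without replicate 1 (adjusted p = 0.0472) and ACVR2A without replicate 2 (0.00927) of the DOX and DMSO group, and both by library totals alone. The epithelial markers moved here too, 7 higher and 1 lower of 9, and their part was not tested.

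Without DOX, RepSox went with higher TGFBR3 and slightly lower BMPR2, while TGFBR2 and TGFBR1 were not called. Of all genes 25.3% were called, 12.5% higher and 12.8% lower, and of the 9 receptors 1 was higher and 1 lower, a total near that share. Libraries did not overlap for 5 of the 9, against 43.7% of all genes. TGFBR3 had 41.2, 37.3 and 37.7 CPM with RepSox, against 25.8, 25.8 and 26.7 CPM with DMSO. The groups lay apart, and TGFBR3 was 1.48-fold higher (log2 0.56, SE 0.071, edgeR adjusted p = 1.43e-05). BMPR2 had 104, 92.6 and 93.1 CPM with RepSox, against 109, 105 and 121 CPM with DMSO. The highest RepSox library lay just under the lowest DMSO library (log2 -0.22, SE 0.076, edgeR adjusted p = 0.0437). This call was lost without replicate 1 (adjusted p = 0.0742) or 3 (0.218) of the DMSO group or replicate 2 (0.179) or 3 (0.156) of the RepSox group.

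TGFBR1, which encodes the kinase that RepSox inhibits, had 27.4, 25.0 and 24.4 CPM with RepSox, against 22.1, 18.9 and 24.1 CPM with DMSO. The RepSox libraries were all above the DMSO libraries, the closest pair by a small margin, and the change was not called (log2 0.23, SE 0.090, edgeR adjusted p = 0.0670). It was called by DESeq2 (adjusted p = 0.0482), with all 18 libraries fitted together (0.0489) and without replicate 3 of the DMSO group (0.0281). TGFBR2 had 101, 103 and 103 CPM with RepSox, just below the 105 to 112 CPM with DMSO (log2 -0.09, 95% interval -0.21 to 0.03, edgeR adjusted p = 0.253). Of the 9 epithelial markers 0 were higher and 4 lower with RepSox here, and their part was not tested.

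In the presence of RepSox, none of the 9 receptors differed between cells with and without DOX by edgeR or by DESeq2, and 1, BMPR2, had an unadjusted p below 0.05. ZEB1 itself was 2.98-fold higher with DOX in this setting (16.01 against 5.38 CPM, edgeR adjusted p = 1.37e-07). Of all genes 0.477% were called, 0.0942% higher and 0.383% lower, which is 81 genes. That count was 36, 41 and 43 without replicate 1, 2 or 3 of the RepSox group and 1670, 27 and 41 without replicate 1, 2 or 3 of the DOX and RepSox group. TGFBR2 had 101, 106 and 111 CPM with DOX and RepSox, against 101, 103 and 103 CPM with RepSox alone (log2 0.05, 95% interval -0.07 to 0.17). BMPR2 had 103, 111 and 117 CPM, against 104, 92.6 and 93.1 CPM (log2 0.19, 95% interval 0.03 to 0.35, edgeR adjusted p = 0.277). For TGFBR1 the interval ran from -0.16 to 0.22 around a log2 change of 0.03. All 9 receptors had libraries that overlapped between these groups, while 16.6% of all genes had none that did.

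The change with RepSox differed with and without DOX for TGFBR2, BMPR2 and TGFBR1 in the test of the difference itself, the interaction term. TGFBR2 had log2 changes of -0.85 with DOX and -0.09 without it, an interaction of -0.75 (SE 0.080, edgeR adjusted p = 1.42e-06). BMPR2 had -0.76 with DOX and -0.22 without it (interaction -0.55, SE 0.11, edgeR adjusted p = 0.000968), so the sign was shared and the size differed. TGFBR1 had -0.38 with DOX and 0.23 without it (interaction -0.61, SE 0.13, edgeR adjusted p = 0.00160). Of all genes 22.6% had a called interaction, 13.0% higher and 9.61% lower, against 0 higher and 3 lower of 9 receptors. TGFBR3 was called higher with RepSox in both settings, and its interaction of -0.26 was not called (95% interval -0.47 to -0.05, edgeR adjusted p = 0.0746). It was called without replicate 3 of the DOX and RepSox group (adjusted p = 0.0312) and by library totals alone, and the share of higher calls among all called genes was 47.0%, against 57.4% with TMM.

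**Figure D4:**
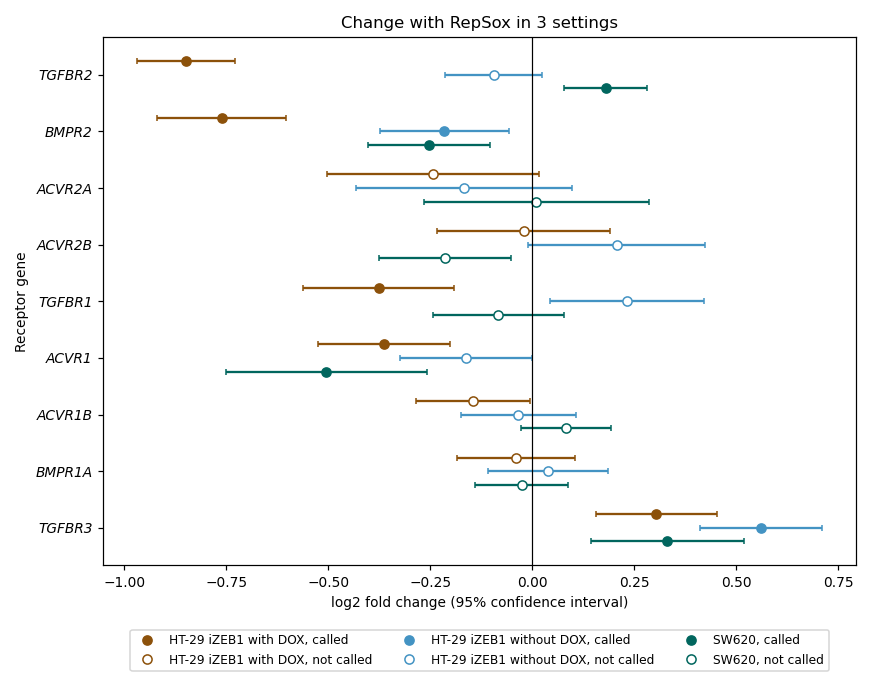
Change with RepSox of the 9 tested receptor genes (log2 fold change with 95% confidence interval, edgeR) in HT-29 iZEB1 with DOX, in HT-29 iZEB1 without DOX and in SW620; filled points were called at an adjusted p below 0.05. TGFBR3 lies between 0.30 and 0.56 in all 3 settings, while TGFBR2 lies at -0.85 with DOX, -0.09 without it and 0.18 in SW620.

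In SW620, RepSox went with higher TGFBR2 and TGFBR3 and lower ACVR1 and BMPR2, all by less than 1.5-fold. Of all 17147 genes tested 19.5% were called, 10.2% higher and 9.24% lower, and of the 9 receptors 2 were higher and 2 lower. Libraries did not overlap for 4 of the 9, against 33.9% of all genes. ACVR1 had 4.15, 5.18 and 4.61 CPM with RepSox, against 6.96, 5.96 and 6.84 CPM with DMSO. Its groups did not overlap and it was 1.42-fold lower (log2 -0.50, SE 0.12, edgeR adjusted p = 0.00343). BMPR2 had 26.1, 25.1 and 23.2 CPM with RepSox, against 27.9, 28.2 and 32.6 CPM with DMSO. It too was lower in each RepSox library than in any DMSO library (log2 -0.25, SE 0.072, edgeR adjusted p = 0.0143). Its call was lost without replicate 3 of the DMSO group (adjusted p = 0.0619) or of the RepSox group (0.0966).

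TGFBR2 had 108, 116 and 110.4 CPM with RepSox, against 99.4, 93.4 and 102 CPM with DMSO in SW620 (log2 0.18, SE 0.050, edgeR adjusted p = 0.0115). TGFBR3 had 20.005, 22.0 and 17.7 CPM with RepSox, against 15.4, 14.1 and 17.95 CPM with DMSO (log2 0.33, SE 0.091, edgeR adjusted p = 0.0109). The TGFBR2 libraries did not overlap and those of TGFBR3 did. Both calls were lost without replicate 2 of the DMSO group (adjusted p = 0.0932 and 0.0912) or of the RepSox group (0.105 and 0.112). TGFBR1 had 19.2, 21.5 and 18.3 CPM with RepSox and 19.4, 20.9 and 22.2 CPM with DMSO, with overlap (log2 -0.08, 95% interval -0.24 to 0.08). ACVR2B had 15.7, 14.1 and 13.5 CPM with RepSox, all below the 16.2, 17.2 and 16.7 CPM with DMSO, and was not called (log2 -0.21, edgeR adjusted p = 0.0586), though it was without replicate 1 of the RepSox group (0.0362). By library totals alone 5 receptors were called, 3 of them lower, and the share of higher calls among all called genes was 39.5%, against 52.5% with TMM. Of 7 tested epithelial markers 5 were higher and 1 lower with RepSox, and their part was not tested.

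The lines differed in their change with RepSox for TGFBR2 and ACVR2B when SW620 was set against HT-29 iZEB1 without DOX. Of all 19107 genes tested 10.4% were called, 5.39% higher and 4.99% lower, against 1 higher and 1 lower of 9 receptors. For TGFBR2 the difference was 0.27 on the log2 scale (SE 0.076, edgeR adjusted p = 0.0223), with changes of 0.18 in SW620 and -0.09 in HT-29 iZEB1. For ACVR2B it was -0.43 (SE 0.14, edgeR adjusted p = 0.0426), with changes of -0.21 in SW620 and 0.21 in HT-29 iZEB1, neither called alone. These calls depended on single libraries and on the processing. The TGFBR2 call was lost with no filter on low counts (adjusted p = 0.0925), and the ACVR2B call with relative log expression size factors (0.0594) and with a replicate block (0.0647). Leaving out 1 of the 12 libraries at a time gave 0 to 2 called receptors, with adjusted p from 0.0153 to 0.0797 for TGFBR2 and from 0.0219 to 0.127 for ACVR2B. Both were uncalled without replicate 2 or 3 of the HT-29 iZEB1 DMSO group, replicate 1 of its RepSox group, or replicate 2 of either SW620 group.

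Between the lines in DMSO, SW620 had much lower ACVR1, BMPR2 and ACVR2A, lower TGFBR3 and higher ACVR2B and BMPR1A than HT-29 iZEB1. Of all genes 76.6% were called, 40.1% higher and 36.5% lower, and of the 9 receptors 2 were higher and 6 lower, a share near that background. Libraries did not overlap for 8 of the 9, against 79.0% of all genes. ACVR1 had 6.96, 5.96 and 6.84 CPM in SW620, against 29.2, 29.2 and 31.2 CPM in HT-29 iZEB1 (4.53-fold lower, log2 -2.18, SE 0.090, edgeR adjusted p = 3.45e-17). BMPR2 had 27.9, 28.2 and 32.6 CPM in SW620, against 109, 105 and 121 CPM in HT-29 iZEB1 (3.77-fold lower, log2 -1.92, SE 0.079, edgeR adjusted p = 3.50e-17). No library of either line came near the other line in these genes. ACVR2A (chromosome 2, 147844517 to 147930826, plus strand, protein-coding) had 4.39, 3.57 and 4.30 CPM in SW620, against 10.6, 10.1 and 8.70 CPM in HT-29 iZEB1 (2.40-fold lower, log2 -1.26, SE 0.13, edgeR adjusted p = 4.01e-09). TGFBR3 had 15.4, 14.1 and 17.95 CPM in SW620, against 25.8, 25.8 and 26.7 CPM in HT-29 iZEB1 (log2 -0.72, SE 0.087, edgeR adjusted p = 5.25e-08). These groups did not overlap either.

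ACVR2B had 16.2, 17.2 and 16.7 CPM in SW620, against 12.01, 10.1 and 11.4 CPM in HT-29 iZEB1 (1.496-fold higher, log2 0.58, SE 0.096, edgeR adjusted p = 6.25e-06). BMPR1A (chromosome 10, 86756601 to 86932838, plus strand, protein-coding) had 52.7, 50.4 and 55.5 CPM in SW620, against 42.5, 42.8 and 44.0 CPM in HT-29 iZEB1 (log2 0.29, SE 0.063, edgeR adjusted p = 0.000183). Both genes were higher in each SW620 library than in any HT-29 iZEB1 library. TGFBR2 and ACVR1B (chromosome 12, 51951667 to 51997078, plus strand, protein-coding) each had a log2 change of -0.15 (edgeR adjusted p = 0.0145 and 0.0307). By library totals alone, which moved the median of all genes to 0.18 on the log2 scale against 0.06 with TMM, neither was called (adjusted p = 0.701 and 0.721). ACVR1B also lost its call without replicate 3 of the HT-29 iZEB1 group (adjusted p = 0.1102). TGFBR1 stood at 20.8 ± 1.39 CPM in SW620 and 21.7 ± 2.63 CPM in HT-29 iZEB1 (SD, n = 3 each), a log2 change of -0.06 with a 95% interval from -0.24 to 0.12, and of 0.06 by library totals. Of 9 epithelial markers 3 were higher and 6 lower in SW620, and of 6 tested markers of other cell types 4 were higher and 1 lower, and their part was not tested.

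Over all 6 groups the widest spread among tested receptors was that of BMPR2, whose highest group mean was 7.48 times its lowest, and that of ACVR1, with 7.13 times. ACVR1B and BMPR1A varied least, by 1.19 and 1.23 times. The genes whose pattern over the 18 libraries was most like that of BMPR2 were SMIM14, TRIQK and IL6ST (Pearson r of 0.997, 0.996 and 0.995 on log2(CPM + 1)). For ACVR1 they were HSD17B4, SLC40A1 and CCNI (r of 0.997, 0.996 and 0.996), and for ACVR2A they were RAB2A, SEPTIN7 and PHF20L1 (r of 0.985, 0.985 and 0.984). TGFBR2 was most like GLCCI1, MYEF2 and ATOH8 (r of 0.979, 0.955 and 0.949). TGFBR1 was most like ABRAXAS1, ARL15 and RNF7 (r of 0.954, 0.952 and 0.923), and TGFBR3 most like PROM1, SSR3 and SLC30A6 (r of 0.969, 0.965 and 0.965). The values were lower for BMPR1A (HSPA13, ZBTB33 and RAB11FIP2, r of 0.925, 0.909 and 0.908), ACVR1B (CNP, VIPAS39 and RNF213, r of 0.900, 0.864 and 0.852) and ACVR2B (STK38L, THEM4 and DLD, r of 0.841, 0.837 and 0.836). These correlations describe 18 libraries that share lines and treatments, over 11938 candidate genes, and carry no test.

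Around these receptors, the remaining signalling receptors of the family were scarce. ACVRL1, the type I receptor ALK1 of endothelial cells, stood at 1.91 ± 0.549 CPM with RepSox and 2.41 ± 0.368 CPM with DMSO in SW620, and below 0.3 CPM on average in each HT-29 iZEB1 group. ACVR1C, the type I receptor ALK7, stood at 0.873 ± 0.263 and 1.10 ± 0.599 CPM in those SW620 groups, and AMHR2, the receptor for anti-Müllerian hormone, had at most 2 counts in a group. None of these 3 passed the filter in HT-29 iZEB1. Among co-receptors, BAMBI, a pseudoreceptor without a kinase, stood at 76.4 ± 2.17 CPM with RepSox and 63.7 ± 2.27 CPM with DMSO in SW620 (edgeR adjusted p = 0.000562), against 0.141 ± 0.123 CPM in HT-29 iZEB1 with DMSO. The BMP co-receptor RGMA had the same contrast, at 28.8 ± 4.34 CPM in SW620 and 0.236 ± 0.118 CPM in HT-29 iZEB1 with DMSO (SD, n = 3 each).

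Of 4 tested co-receptors in HT-29 iZEB1, 2 rose and 0 fell with DOX in DMSO, and 0 rose and 3 fell with RepSox in the presence of DOX, where 40.4% and 52.2% of all genes were called. ENG, which encodes endoglin, stood at 17.7 CPM with DOX and RepSox, 27.6 CPM with DOX and DMSO and 16.3 CPM with DMSO. It was 1.70-fold higher with DOX (log2 0.76, edgeR adjusted p = 6.86e-06) and 1.57-fold lower with RepSox in the presence of DOX (log2 -0.65, edgeR adjusted p = 2.21e-05). Of 7 tested SMAD genes, 3 rose and 0 fell with DOX in DMSO, 0 rose and 5 fell with RepSox in the presence of DOX, and 1 rose and 3 fell with RepSox without DOX, against 40.4%, 52.2% and 25.3% of all genes called. The 3 of 7 with DOX are thus near the share of all genes. SMAD3, the effector of TGF-β receptors, stood at 93.8 CPM with DOX and RepSox, 206 CPM with DOX and DMSO, 101 CPM with RepSox and 164 CPM with DMSO. It was 2.21-fold lower with RepSox in the presence of DOX and 1.63-fold lower without it (edgeR adjusted p = 5.54e-12 and 3.49e-08). In SW620, 1 of 8 tested SMAD genes rose and 1 fell with RepSox, against 19.5% of all genes called. SMAD4, the partner that all receptor-activated SMADs share, stood at 0.584 ± 0.238 CPM in SW620 and 13.1 ± 0.989 CPM in HT-29 iZEB1 with DMSO (SD, n = 3 each).

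Of 12 target genes of TGF-β and activin, 9 rose and 2 fell with DOX in DMSO, where 40.4% of all genes were called. With RepSox 2 rose and 10 fell in the presence of DOX, 1 rose and 9 fell without it, and in SW620 5 rose and 4 fell, against 52.2%, 25.3% and 19.5% of all genes called. The median log2 change of these 12 genes was 0.33 with DOX in DMSO, -0.99 with RepSox in the presence of DOX, -0.51 without it and 0.09 in SW620, where the median of all genes lay between -0.01 and 0.002. The change with RepSox was higher in SW620 than in HT-29 iZEB1 without DOX for 7 of the 12 in the test of that difference, and lower for 0, against 10.4% of all genes called. ITGB6, an integrin subunit of epithelia that activates latent TGF-β, had the largest changes of the list with DOX and went against most of it. It stood at 25.8 CPM with DOX and RepSox, 3.27 CPM with DOX and DMSO and 32.2 CPM with DMSO, 9.82-fold lower with DOX (edgeR adjusted p = 2.69e-14) and 7.83-fold higher with RepSox in the presence of DOX (1.53e-13). CCN2, a matricellular growth factor, was 3.22-fold lower with RepSox in the presence of DOX (2.54 against 8.14 CPM, edgeR adjusted p = 1.69e-08), and TAGLN, an actin-binding protein of smooth muscle, was 4.20-fold higher with RepSox in SW620 (56.2 against 13.4 CPM, edgeR adjusted p = 3.18e-15). Of the BMP targets, 3 rose and 1 fell of 7 with DOX in DMSO, 1 rose and 5 fell with RepSox in the presence of DOX, 1 rose and 4 fell without it, and in SW620 3 rose and 4 fell of 9, against the same shares of all genes. ATOH8 had the largest changes of this list with DOX in DMSO, at 48.7-fold higher (10.2 against 0.207 CPM, edgeR adjusted p = 3.97e-12). With RepSox in the presence of DOX its change was also the largest, at 120-fold lower (0.0827 against 10.2 CPM, edgeR adjusted p = 1.66e-12). The lower levels rest on 22 counts summed over 3 libraries with DMSO and 9 with DOX and RepSox, so the size of both folds is uncertain. ID2, a relative of ID1, went the other way. It was 2.83-fold lower with DOX in DMSO (12 against 34.1 CPM, edgeR adjusted p = 5.06e-11) and 3.94-fold higher with RepSox in the presence of DOX (47.7 against 12 CPM, edgeR adjusted p = 1.22e-12). Without DOX it stood at 58.7 CPM with RepSox and 34.1 CPM with DMSO. ID1, an inhibitor of helix-loop-helix factors induced by BMP, stood at 19.4 CPM with DOX and RepSox and 48.4 CPM with DOX and DMSO (edgeR adjusted p = 1.33e-09). Without DOX it stood at 18.3 CPM with RepSox and 46.4 CPM with DMSO. It was not called with DOX in DMSO (edgeR adjusted p = 0.600). In SW620 it stood at 54.6 CPM with RepSox and 76.3 CPM with DMSO (edgeR adjusted p = 1.37e-06).

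Of 15 tested regulators of these receptors, 4 rose and 3 fell with DOX in DMSO and 5 rose and 5 fell with RepSox in the presence of DOX, near the 40.4% and 52.2% of all genes called. Of 10 tested ligands, 4 rose and 1 fell with DOX in DMSO, also near the share of all genes, among them BMP4 (804 against 574 CPM, edgeR adjusted p = 2.02e-05). With RepSox in the presence of DOX 3 ligands rose and 4 fell, against 52.2% of all genes called. Of 8 secreted antagonists 6 rose and 1 fell with DOX in DMSO and 2 rose and 6 fell with RepSox in the presence of DOX, against 40.4% and 52.2%. With DOX in RepSox, where 0.477% of all genes were called, 1 ligand, BMP2, was called lower, and no gene of the other lists was called by edgeR. Between the lines in DMSO, of 18 tested ligands 11 were higher and 5 lower in SW620, against 76.6% of all genes called. INHBB, a subunit of activin B, stood at 191 ± 7.81 CPM in SW620 and 0.019 ± 0.033 CPM in HT-29 iZEB1, and BMP7 at 114 ± 2.16 and 0.113 ± 0.057 CPM (SD, n = 3 each). BMP2 stood the other way, at 0.017 ± 0.029 CPM in SW620 and 10.9 ± 0.522 CPM in HT-29 iZEB1.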

How the data were processed

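RNA was measured in 18 libraries of HT-29 iZEB1 and SW620 cells, sequenced on a BGISEQ-500 per the labels' protocols. The deposited table holds raw read counts per gene symbol, not normalised. Per the submitters' processing notes, the build was GRCh38.p13, and the tools listed, without roles, are HISAT2 2.2.0, DESeq2 1.34.0, FastQC 0.11.9 and featureCounts 2.0.0. Strandedness, parameters and gene annotation are not given in the sources used. Of counts from 1 to 20, 54.7% were even, and 40207 counts of 2 stood against 30433 of 1. Whether mates of a pair were counted separately was not tested.

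Groups came from the labels, and within-group replicates varied beyond counting noise (chi-square over its degrees of freedom of 3.93 to 42.6), so each is 1 library. The test was edgeR 4.0.16 (R 4.3.3) with TMM scaling, filterByExpr at a minimum count of 10, glmQLFit and glmQLFTest. In each comparison p was adjusted by Benjamini-Hochberg over all genes tested and called below 0.05. A fit held the 12 HT-29 iZEB1 libraries (16978 genes), another the 6 SW620 libraries (17147), and the last all 18 for contrasts between lines (19107), with a biological coefficient of variation of 7.82%, 5.10% and 7.04%. A standard error is the size of the unshrunken log2 change over the root of F, and the fits were tested on simulated data. CPM use TMM library sizes over all 18 libraries, while tests use those of their own fit. Lengths and coordinates are from GENCODE 29 (GRCh38), matched by symbol, and promoter windows from RefSeq (GRCh38.p14).

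The receptors and the pathway and marker lists were chosen with earlier results of these data known. All 10 receptors are given. Of each list, up to 4 called genes with the largest change and at least 1 CPM in the higher group could be named, others being given by level, and for each receptor the 3 genes with the highest correlation among genes reaching 5 CPM. Alternatives were DESeq2 1.42.0, other scalings, no filter, a replicate block, other sets of fitted libraries and leaving out each library.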

Additional observations from a re-analysis of the deposited data

Results flagged for a closer look

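The change with RepSox differed with and without DOX in HT-29 iZEB1 for 3 receptors, by the interaction term of edgeR. For TGFBR2 the difference was -0.75 on the log2 scale (log2 changes of -0.85 with DOX and -0.09 without it), for TGFBR1 -0.61 (-0.38 and 0.23) and for BMPR2 -0.55 (-0.76 and -0.22). Over 12 fits that left out 1 library each, the differences ran from -0.80 to -0.72 for TGFBR2, from -0.69 to -0.52 for TGFBR1 and from -0.61 to -0.49 for BMPR2, and the highest adjusted p was 1.46e-05, 0.00744 and 0.00481. ZEB1 had an interaction of -3.90 in the same fit, and its part in these differences was not tested.

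The change with RepSox differed between SW620 and HT-29 iZEB1 without DOX for TGFBR2 (0.27 on the log2 scale) and ACVR2B (-0.43), by the contrast of both changes in edgeR. Both calls were fragile. Over 12 fits that left out 1 library each, the adjusted p ran from 0.0153 to 0.0797 for TGFBR2 and from 0.0219 to 0.127 for ACVR2B, and in 5 of them neither was called. TGFBR2 was also uncalled with no filter on low counts (adjusted p = 0.0925), and ACVR2B with relative log expression size factors (0.0594) and with a replicate block (0.0647). Groups of 3 libraries are too small for the test of single distant libraries, which was not made.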

How the results depend on the processing

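The numbers of receptors called were within 1.5 times those reported under DESeq2, other size factors, no filter, the replicate block, library totals and other sets of fitted libraries, with these exceptions. For DOX in DMSO library totals gave 8. For the difference between lines in the change with RepSox, relative log expression size factors (ACVR2B lost), no filter (TGFBR2 lost) and the replicate block (ACVR2B lost) gave 1 each. Leaving out 1 library gave 3 to 4 for DOX in DMSO, 5 to 6 for RepSox with DOX, 1 to 2 without it, 0 to 0 for DOX in RepSox, 3 to 4 for the interaction, 2 to 5 for RepSox in SW620, 7 to 8 for SW620 against HT-29 iZEB1 and 0 to 2 for the difference between lines.

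Library totals turned the sign of 3 uncalled log2 changes, of ACVR1B for DOX in RepSox (0.019), ACVR2A for RepSox in SW620 (-0.023) and TGFBR1 between the lines (0.065). Leaving out 1 library turned the sign of 18 values, all uncalled. Their ranges were -0.074 to 0.030 for ACVR1B and -0.020 to 0.093 for BMPR1A (RepSox without DOX), -0.21 to 0.062 for ACVR2A (interaction) and -0.12 to 0.025 for ACVR2B (RepSox with DOX). For DOX in RepSox they were -0.0092 to 0.082 for TGFBR1, -0.024 to 0.0065 for ACVR1B and -0.023 to 0.13 for ACVR2B. They were -0.078 to 0.064 for ACVR2A and -0.059 to 0.014 for BMPR1A (RepSox in SW620), and -0.11 to 0.042 for BMPR2 (difference between lines). The cause was not tested.

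Replicate numbers are shared between groups, but of 21 same-numbered pairs within a line 0 had deviations correlated above 0.1 (r from -0.096 to 0.053), and 6 of 18 libraries correlated best with their own number. No pairing by number was seen by this measure, which cannot show how the libraries were handled. With a replicate block 6 receptors were called between the lines, TGFBR2 and ACVR1B having adjusted p of 0.160 and 0.392, and 1 in the difference between lines. Over all genes, DOX in RepSox gave 81 calls, against 293 with DESeq2, 584 with no filter and 162 with all 18 libraries fitted. RepSox in SW620 gave 3338, against 2019 with all 18 fitted, and the difference between lines 1982, against 3016 in its own libraries alone. BMPR1B, with 0 to 6 counts in a library, passed no filter and has no test.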
